A study of Mus musculus with 6 samples.

Results

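Antisense noncoding RNAs are transcripts read from the strand opposite to a gene, or from a neighbouring start that points away from it. They were chosen from the gene table as the rows of type antisense whose mean over the 6 libraries reached 1 FPKM (sequenced fragments corrected for transcript length and for library size), leaving out Gas5 and names starting with Snhg, which host small nucleolar RNAs. This gave 112 of the 13823 listed genes. The table held 240 antisense rows at any level, 127 of them under 1 FPKM, and the name rule removed 1 of the other 113. The level that chose the members is a description here and is not itself tested. A member near 1 FPKM can have met the rule through the group where it was high.

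The RNA came from Balb/c mice that the labels call male, with the tissue given as breast. The 3 ITSN mice received isotoosendanin (ITSN), a plant limonoid, by mouth at 1 mg/kg each day. The 3 vehicle mice received dimethyl sulfoxide (DMSO). According to its title, the series concerns TGFβR1, a receptor of transforming growth factor β, and epithelial-mesenchymal transition in triple-negative breast cancer. The labels describe 6 separate mice divided at random, and do not say whether the tissue was tumour.

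Antisense RNAs are usually less abundant than the coding genes they overlap and are often kept in the nucleus, where many are degraded by the exosome. Some act in cis on the chromatin or transcription of their neighbours, as the imprinted Kcnq1ot1 and Airn do from the paternal allele in the mouse. Others start close to a coding gene and share a promoter region with it. For most of the members no function is established, and a shared locus alone does not show that one transcript acts on the other.

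Pairing by locus and strand gave 84 members that overlapped a listed protein-coding gene on the other strand, with 82 distinct partners, and 12 of these members had more than 1. By position relative to the partner with the longest overlap, 28 overlapped it at the 5′ ends, 31 lay inside it, 19 overlapped at the 3′ ends and 6 spanned it. The other 28 overlapped no listed coding gene. For 9 of these 28, GENCODE M21 places a coding gene opposite that was not among the listed rows, such as Kcnq1 for Kcnq1ot1 and Kirrel3 for Kirrel3os, and for 19 it places none. Distances between 5′ ends were measured to the partner with the longest overlap or, without a listed partner, to the nearest listed coding 5′ end opposite. By this measure 32 members lay within 1000 bases, 20 of them overlapping that gene and 12 not, and for 8 the distance was at most 100 bases. Further partners of the same member were not measured, and some of them, such as Sf3b4 for Gm17690, overlap it at the 5′ ends.

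Promoter windows from RefSeq (GRCm38.p6, 250 bases before to 50 after the annotated start) describe the annotated starts of a part of the members. Of the 112 members 53 had a window, and for 40 its start lay within 500 bases of the 5′ end in the table. The first pair below are the imprinted antisense RNAs, Kcnq1ot1 (chr7:143296498-143296797, minus strand) and Airn (chr17:12741061-12741360, plus strand). Gm16174 (chr7:19816335-19816634, plus strand) and Gm26947 (chr10:60931740-60932039, plus strand) had the smallest p among the members higher in ITSN. The windows of Pcna (chr2:132253131-132253430, minus strand) and Cers2 (chr3:95314940-95315239, plus strand) are those of coding genes whose windows hold the 5′ end of an antisense RNA on the other strand, AV099323 at base 74 and 6330562C20Rik at base 188. The RefSeq starts of Pcna and Cers2 lie 134 and 399 bases from the 5′ ends in the table. Capitals mark CpG dinucleotides, and each sequence runs 5′ to 3′ along the strand of the gene that names it.
Kcnq1ot1: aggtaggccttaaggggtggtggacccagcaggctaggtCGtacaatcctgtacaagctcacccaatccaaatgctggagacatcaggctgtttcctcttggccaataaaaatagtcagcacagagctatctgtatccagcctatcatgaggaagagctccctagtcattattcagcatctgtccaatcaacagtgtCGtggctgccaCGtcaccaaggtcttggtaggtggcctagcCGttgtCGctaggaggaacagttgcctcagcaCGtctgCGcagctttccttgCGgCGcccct
Airn: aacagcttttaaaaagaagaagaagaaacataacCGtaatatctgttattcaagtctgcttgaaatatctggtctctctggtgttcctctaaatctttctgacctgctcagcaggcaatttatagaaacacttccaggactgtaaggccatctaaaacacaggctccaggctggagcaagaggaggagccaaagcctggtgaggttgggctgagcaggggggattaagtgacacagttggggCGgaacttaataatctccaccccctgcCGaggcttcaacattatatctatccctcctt
Gm16174: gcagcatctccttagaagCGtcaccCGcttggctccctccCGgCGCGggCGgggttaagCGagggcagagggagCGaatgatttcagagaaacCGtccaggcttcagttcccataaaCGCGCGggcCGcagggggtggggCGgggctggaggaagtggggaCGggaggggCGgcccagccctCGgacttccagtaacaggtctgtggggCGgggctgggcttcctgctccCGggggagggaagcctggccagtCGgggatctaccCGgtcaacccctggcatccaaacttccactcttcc
Gm26947: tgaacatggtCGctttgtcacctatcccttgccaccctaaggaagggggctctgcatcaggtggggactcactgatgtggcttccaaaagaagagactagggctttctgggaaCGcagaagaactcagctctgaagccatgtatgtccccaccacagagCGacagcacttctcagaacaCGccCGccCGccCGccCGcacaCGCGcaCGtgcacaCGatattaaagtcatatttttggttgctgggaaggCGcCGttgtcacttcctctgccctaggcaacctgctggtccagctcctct
Pcna: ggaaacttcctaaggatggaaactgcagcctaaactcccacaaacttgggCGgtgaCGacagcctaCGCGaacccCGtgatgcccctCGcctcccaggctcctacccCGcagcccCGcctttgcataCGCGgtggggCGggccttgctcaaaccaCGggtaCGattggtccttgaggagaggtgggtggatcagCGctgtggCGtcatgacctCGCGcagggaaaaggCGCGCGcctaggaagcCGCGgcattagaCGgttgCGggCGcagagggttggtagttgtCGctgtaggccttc
Cers2: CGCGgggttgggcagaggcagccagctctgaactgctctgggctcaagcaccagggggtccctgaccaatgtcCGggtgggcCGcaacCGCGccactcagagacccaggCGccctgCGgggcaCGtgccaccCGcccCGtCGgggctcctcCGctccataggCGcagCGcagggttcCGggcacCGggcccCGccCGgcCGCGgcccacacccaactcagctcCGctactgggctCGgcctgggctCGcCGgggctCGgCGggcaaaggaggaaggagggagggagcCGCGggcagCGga

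The windows of Pcna and Cers2 held 26 and 30 CpG, those of Gm16174 and Gm26947 held 21 and 14, Kcnq1ot1 had 9 and Airn 3. The median over the 40 members was 20.5 CpG per window, against 7 over all 32851 windows. The set of all windows was not limited to genes expressed here, as the members were, so the comparison is not like for like. This applies to the motifs below too. Members whose 5′ end lay within 1000 bases of the coding 5′ end measured above had a median of 28 CpG (13 windows). The other members, which can still start near a further partner, had 14 (27 windows). For 26 coding genes at such shared starts the median was 27. The motif GGGCGG, the GC box, was present on either strand in 57.5% of the members' windows and 35.7% of all windows. CCAAT was found in 37.5% of the members' windows and 37.4% of all, and TATAAA in 10% and 13.6%. Kcnq1ot1 had 3 CCAAT motifs and Gm16174 had 4 GC boxes. Both strands were searched, no motif contains another, and a match describes letters only.

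Facts of the whole table bear on every value that follows. Vehicle 1 stood apart from the other 5 libraries on the first principal component (54.1% of the variance), scoring -43.2 where those lay from -4.63 to 20.1. The mitochondrial share of all FPKM was 14.3%, 15.6% and 13.5% in ITSN 1, 2 and 3, against 32.3%, 22.4% and 17.5% in vehicle 1, 2 and 3, and a larger share leaves less of the sum to all other genes together. The difference between groups also followed GC content, with a Spearman correlation between GC and log2 difference of 0.59 across 12234 genes and of 0.44 across 109 members; genes are not independent replicates. The libraries were made to mark strand, but no source used here says whether counting used it, so reads of an antisense RNA and of an overlapping partner cannot be told apart with certainty. Of the markers used to check the tissue label, 8 of 15 mammary epithelial genes were listed, with Krt5, Krt17, Trp63, Elf5, Pgr, Csn2 and Wap not among them, and of 5 adipocyte genes only Fabp4 was. Summed skeletal muscle markers (4 of 4 listed) were at 23.6, 53.6 and 0.181 FPKM in ITSN 1, 2 and 3, against 0.0775, 1.69 and 2.39 FPKM in vehicle 1, 2 and 3. Summed leukocyte markers (4 of 5 listed) were at 34.0, 29.4 and 38.0 FPKM in ITSN, against 15.2, 31.6 and 41.7 FPKM in vehicle, and the 4 fibroblast markers at 102, 69.4 and 127 FPKM in ITSN, against 32.6, 82.2 and 107 FPKM in vehicle. Col1a1 and Col1a2 made up most of the fibroblast sum, and 3 of the 4 had a log2 difference above 0. Pdgfra went the other way, at 8.35, 10.7 and 6.38 FPKM in ITSN, against 14.8, 9.35 and 6.82 FPKM in vehicle. The 8 epithelial markers summed to 530, 526 and 553 FPKM in ITSN, against 355, 478 and 528 FPKM in vehicle, and the 3 endothelial markers to 18.8, 22.3 and 16.3 FPKM in ITSN, against 27.3, 21.4 and 18.6 FPKM in vehicle. Krt18 and Krt8, with means of 262 and 210 FPKM over the 6 libraries, made up most of the epithelial sum. Of the 8 epithelial genes 5 had a log2 difference above 0. In bulk tissue, fewer cells of a type and less RNA per cell cannot be told apart, and the part of these markers in the results on antisense RNAs was not tested.

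The antisense RNAs were a low-abundance class. The median of their mean levels was 1.92 FPKM, 60 of 112 (53.6%) lay under 2 FPKM, 10 reached 5 FPKM and 5 reached 10 FPKM. Just inside the threshold of 1 FPKM stood Runx2os2 at 1.01, Gm13563 at 1.02, Peak1os at 1.03 and Gm17259 at 1.03 FPKM, and just outside it 1500015A07Rik at 0.999, Gm11131 at 0.991, Zfp335os at 0.988 and Gm27003 at 0.979 FPKM. Together the members summed to 319, 322 and 327 FPKM in ITSN 1, 2 and 3, against 280, 306 and 315 FPKM in vehicle 1, 2 and 3. As a share of the sum without mitochondrial transcripts this was 0.180%, 0.184% and 0.180% in ITSN and 0.183%, 0.178% and 0.177% in vehicle, and these shares overlapped. Between 105 and 106 members reached 1 FPKM in each ITSN library, against 89, 100 and 95 in vehicle 1, 2 and 3. These counts use the level that chose the members and stand without the share of all listed genes. The median FPKM of the whole table was also higher in every ITSN library than in every vehicle library. The counts are therefore no result about antisense RNAs. Of 110 members with exons in GENCODE M21, 23 had 1 exon, and the median exonic length was 1315 bases. The median GC content was 48.4% in the members and 48.6% in all tested genes. They lay on 19 chromosomes, with 13 members on chromosome 3, of which Gm20628, Gm20633 and Gm20632 lie in a histone gene cluster.

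The most abundant member was Tug1, a long RNA first described in developing retina, whose 5′ end lies 179 bases from that of Morc2a, a chromatin ATPase gene. Tug1 was at 21.9, 24.9 and 21.4 FPKM in ITSN, against 22.9, 23.2 and 24.0 FPKM in vehicle. The groups overlapped, and its mean over the 6 libraries was 99.3% of the level of Morc2a. Kcnq1ot1, the unspliced antisense RNA of the Kcnq1 imprinted cluster, was at 10.8, 10.3 and 11.1 FPKM in ITSN, against 12.3, 11.3 and 10.6 FPKM in vehicle. Airn, whose transcription silences Igf2r on the paternal allele, was at 6.25, 5.58 and 7.17 FPKM in ITSN, against 7.23, 5.35 and 4.59 FPKM in vehicle. For both imprinted RNAs the groups overlapped. Igf2r itself, the receptor of insulin-like growth factor 2, stood at 75.7, 64.8 and 84.3 FPKM in ITSN, against 63.3, 68.5 and 70.5 FPKM in vehicle, so Airn was at 8.47% of its partner. None of the exonic bases of Airn overlap exons of Igf2r.

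Gm4610, inside the adaptor gene Bcar3, averaged 15.7 ± 0.745 FPKM in ITSN and 16.2 ± 2.42 FPKM in vehicle (SD, n = 3 each). Brip1os, which spans the Integrator subunit gene Ints2, averaged 13.8 ± 0.762 FPKM in ITSN and 13.2 ± 1.50 FPKM in vehicle. Kirrel3os averaged 11.5 ± 0.840 FPKM in ITSN and 9.90 ± 0.780 FPKM in vehicle. These 3 and Kcnq1ot1 were the members, besides Tug1, that reached 10 FPKM. F630028O10Rik, the one member on the X chromosome, Gm27240, inside the transcription factor gene Ets1, Gt(ROSA)26Sor, the transcript of the locus used for knock-in transgenes, and Gm26944, opposite the 3′ end of the transcript cleavage factor gene Pcf11, completed the 10 highest, at mean levels down to 5.02 FPKM. The limma adjusted p of these 10 lay between 0.324 and 0.907.

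**Figure D1:**
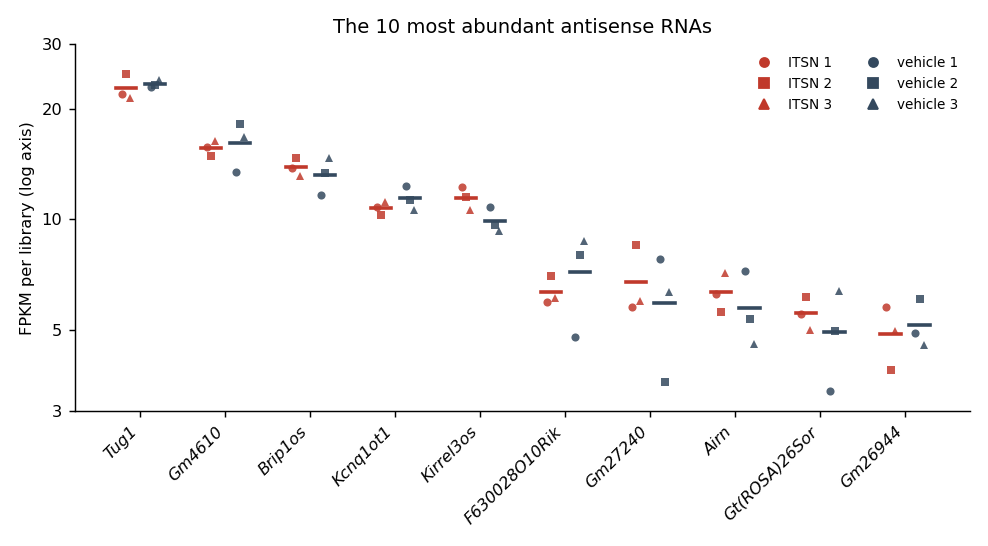
FPKM in each library (log axis) of the 10 antisense RNAs with the highest mean level; symbols are libraries, ITSN left of vehicle for each gene, and horizontal bars are group means. Tug1 stood above 20 FPKM in all 6 libraries, and each of the 10 genes had ITSN and vehicle libraries that overlapped.

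For each member with several partners the one with the longest overlap was used for levels. Against these partners, 72 of the 84 paired members were the less abundant and 12 the more abundant on the FPKM scale, which is per length. Only listed genes, with a higher group mean of at least 0.50 FPKM, could be partners. The 9 members whose coding gene in GENCODE M21 was not listed, among them Kcnq1ot1 and Kirrel3os, are therefore left out. The split and the levels below hold for listed partners only. The median member stood at 23.5% of its partner, and 23 members stood below 10%. At the low end were Gm20632 (1.20% of the histone gene Hist2h2aa2), Gm28809 (1.43% of Cd9, a tetraspanin gene) and Gm20628 (1.53% of Hist2h3b). At the high end were Nr6a1os (380% of Nr6a1, an orphan nuclear receptor gene), Prox2os (269% of Prox2) and Brip1os (216% of Ints2). The symbols of this paragraph other than Gm20628 and Brip1os were chosen after their values were seen. Members inside their partner had a median of 34.3% of its level and those at the 3′ ends 30.6%, while those at the 5′ ends had 14.0% and those that span the partner 3.89%.

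Exons of 66 members overlapped exons of the partner and those of 18 did not. The first set had a median level of 1.72 FPKM and the second of 2.90 FPKM. The Spearman correlation between the mean level of a member and of its partner was -0.13 in the first set and 0.02 in the second, across genes that share libraries and loci. For 9 members at least 50% of the exonic bases lay over exons of the partner. Gm42457 had all of its exonic bases (100%) inside exons of Mfsd14a and stood at 20.9% of the level of that gene, Gm42413 had 98.2% inside Qdpr at 33.1% and A630072M18Rik had 95.0% inside Rsbn1l at 20.2%. These 3 were chosen after their values were seen, and the part that reads of the coding strand have in their levels was not tested.

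ITSN was then set against vehicle for each gene, with limma on log2(FPKM + 1), on which the differences of low genes are understated. The fit took every gene that reached 1 FPKM in 3 or more of the libraries, a filter that 111 of the 112 members passed and Gm15564 did not. At a limma adjusted p under 0.05, 0 of 111 members were called, where 0.0571% of all 12257 tested genes were (7 genes). The smallest adjusted p of a member was 0.068. At an unadjusted limma p under 0.05 there were 22 members (19.8%), against 20.9% of all tested genes. Of these, 17 were higher in ITSN, where 16.3% of all tested genes were, and 5 were lower, where 4.57% were. The groups did not overlap for 26 members (23.4%), against 29.1% of all tested genes. The 21 such members higher in ITSN stand against 21.8% of all tested genes and the 5 lower against 7.37%. These shares were near the background and are no result about antisense RNAs.

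The log2 difference was above 0 in 74 of 111 members (66.7%), against 64.0% of all tested genes. Its median was 0.12 in the members, 0.09 in all tested genes, 0.09 in 10954 protein-coding genes and 0.04 in 206 long intergenic RNAs. After trimmed-mean (TMM) scaling 59 members (53.2%) were above 0, against 49.5% of all tested genes, and after removal of the GC trend 65 (58.6%), against 51.0%. After quantile normalization 53 (47.7%) were, against 46.9%, and the median of the members turned to -0.0085 while that of all tested genes moved by -0.10. By position, 20 of 28 members overlapping at the 5′ ends were above 0, 16 of 31 inside the partner, 13 of 18 at the 3′ ends, 5 of 6 that span the partner and 20 of 28 with no listed partner. The medians of these 5 sets were 0.16, 0.00, 0.12, 0.06 and 0.18.

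**Figure D2:**
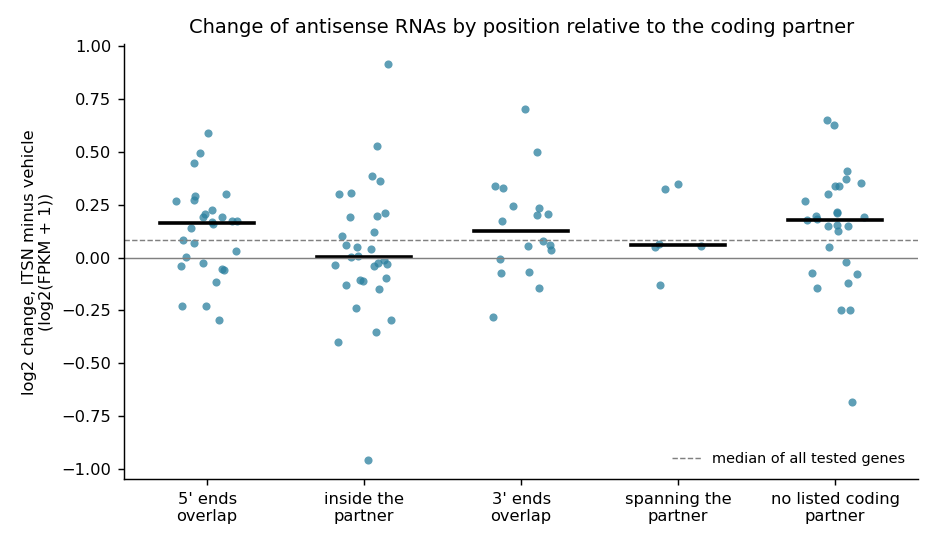
Log2 difference of ITSN minus vehicle on the log2(FPKM + 1) scale for the 111 tested antisense RNAs, by position relative to the coding partner; points are genes, bars are medians and the dashed line is the median of all tested genes. Members inside the partner centred on 0.00 and those with no listed partner on 0.18, with wide overlap between the sets.

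The smallest p belonged to Gm16174 (ENSMUSG00000087593.1), on the plus strand of chromosome 7 from 19816553 to 19818625 in mm10. It lies within Bcl3, which encodes a nuclear cofactor of NF-κB, and shares no exonic base with it. Gm16174 was at 2.93, 2.00 and 2.85 FPKM in ITSN, against 0.941, 1.01 and 0.734 FPKM in vehicle. Every ITSN library was above every vehicle library, and the ratio of means was 2.90. The log2 difference was 0.92 (SE 0.14, limma adjusted p = 0.068). Of the vehicle libraries only vehicle 2 reached 1 FPKM, so Gm16174 met the filter and the member rule through ITSN, where it was high. Bcl3 was at 5.82, 3.73 and 6.80 FPKM in ITSN, against 5.04, 3.66 and 3.18 FPKM in vehicle, with groups that overlapped and a log2 difference of 0.37 (SE 0.22, limma adjusted p = 0.400). In the fit of the ratio described below, Gm16174 minus Bcl3 was 0.55 (SE 0.16, limma adjusted p = 0.185) and was not called.

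AV099323 (chromosome 2, 132253357 to 132261333, plus strand) had the next smallest p and was lower in ITSN. Its 5′ end lies 43 bases from that of Pcna, the sliding clamp of DNA replication, and the 2 loci do not overlap. AV099323 was at 0.685, 0.940 and 0.984 FPKM in ITSN, against 1.74, 2.36 and 1.90 FPKM in vehicle. Every ITSN library was below every vehicle library, with a log2 difference of -0.68 (SE 0.12, limma adjusted p = 0.076). All its ITSN values lay under 1 FPKM, so AV099323 passed the filter and the member rule only through vehicle, where it was high. Its p and its calls below are therefore a description and no support for a change. Pcna was at 41.6, 42.0 and 43.4 FPKM in ITSN, against 27.0, 46.3 and 54.2 FPKM in vehicle. Vehicle 1 was the lowest and vehicle 3 the highest, the groups overlapped, and the log2 difference was 0.05 (SE 0.24). Whether the difference itself differs between these neighbours was not tested, since the ratio was fitted only to pairs that overlap.

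Gm26947 (chromosome 10, 60931991 to 60940942, plus strand) had no coding gene opposite. It was at 3.31, 2.56 and 3.34 FPKM in ITSN, against 1.34, 1.75 and 1.68 FPKM in vehicle, with no overlap and a log2 difference of 0.65 (SE 0.12, limma adjusted p = 0.076). 6330562C20Rik (chromosome 3, 95307076 to 95315127, minus strand) overlaps the first part of Cers2, the ceramide synthase of very long acyl chains, and also Anxa9 on its own strand. It was at 2.50, 2.56 and 2.52 FPKM in ITSN, against 1.30, 1.75 and 1.47 FPKM in vehicle, and the groups did not overlap. Its log2 difference was 0.50 (SE 0.10, limma adjusted p = 0.081), and Cers2, also without overlap between groups, had 0.32 (SE 0.10, limma adjusted p = 0.136). In the fit of the ratio, 6330562C20Rik minus Cers2 was 0.18 (SE 0.10, limma adjusted p = 0.424). With the GC trend removed the log2 difference of ITSN minus vehicle was 0.11 for 6330562C20Rik (0.18 for Cers2), 0.63 for Gm16174, 0.51 for Gm26947 and -0.66 for AV099323.

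Calls depended on vehicle 1. Without that library 29 members (26.1%) had an unadjusted limma p under 0.05, against 28.8% of all tested genes. Limma then called 3 members, Gm16174 (adjusted p = 0.041), AV099323 (adjusted p = 0.041) and Gm26947 (adjusted p = 0.049). That is 2.70% of those tested, against 5.49% of all tested genes. After trimmed-mean scaling of all 6 libraries limma called 1 member (0.901%), AV099323 (adjusted p = 0.048), against 0.922% of all tested genes. With the GC trend removed limma called 0 members, against 0.0653% of all tested genes. There 16 members had an unadjusted limma p under 0.05, a count that stands without the share of all tested genes and is no result about antisense RNAs. Over the 15 other settings in which each of these 3 was fitted, the limma adjusted p ran from 0.041 to 0.371 for Gm16174 and AV099323 and from 0.049 to 0.371 for Gm26947, each highest without ITSN 1.

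Among the other members with small p, Hotairm1, a long RNA described in human myeloid cells, was at 2.91, 1.94 and 2.97 FPKM in ITSN, against 1.12, 1.68 and 1.34 FPKM in vehicle. The groups did not overlap, with a log2 difference of 0.59 (SE 0.16, limma adjusted p = 0.115). Runx2os1, inside the osteoblast transcription factor gene Runx2, was at 1.93, 1.34 and 1.74 FPKM in ITSN, against 0.592, 1.28 and 0.719 FPKM in vehicle. ITSN 2 and vehicle 2 nearly met, and 65.5% of its exonic bases lie over exons of Runx2, which had a log2 difference of -0.08. In the fit of the ratio, Runx2os1 minus Runx2 was 0.61 (SE 0.19, limma adjusted p = 0.193). The neighbouring Runx2os2, in the same gene, was at 0.954, 1.08 and 1.07 FPKM in ITSN, against 0.945, 1.03 and 0.960 FPKM in vehicle, with groups that overlapped.

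Starts shared with a coding gene occurred in 2 further members of this set. Gm12963 starts 66 bases from Col16a1, a fibril-associated collagen gene, and had a log2 difference of 0.34, while that of Col16a1 was 0.67. Gm11767 starts 65 bases from Baiap2, which encodes an actin-regulating scaffold, with 0.37 for the antisense RNA and 0.40 for the coding gene. With the GC trend removed Gm12963 was at -0.01 and Col16a1 at 0.22, and Gm11767 at -0.07 and Baiap2 at 0.05. Gm15265, within the Golgi kinase gene Pi4kb, had a log2 difference of 0.39 and its partner 0.16. 2510017J16Rik, inside the RNA-binding protein gene Rbm48 without exonic overlap, was at 4.17, 3.80 and 3.18 FPKM in ITSN, against 5.32, 5.28 and 5.02 FPKM in vehicle. Both genes were lower in every ITSN library than in every vehicle library, with log2 differences of -0.40 and -0.39. Limma adjusted p for these 4 antisense RNAs ran from 0.104 to 0.147.

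**Figure D3:**
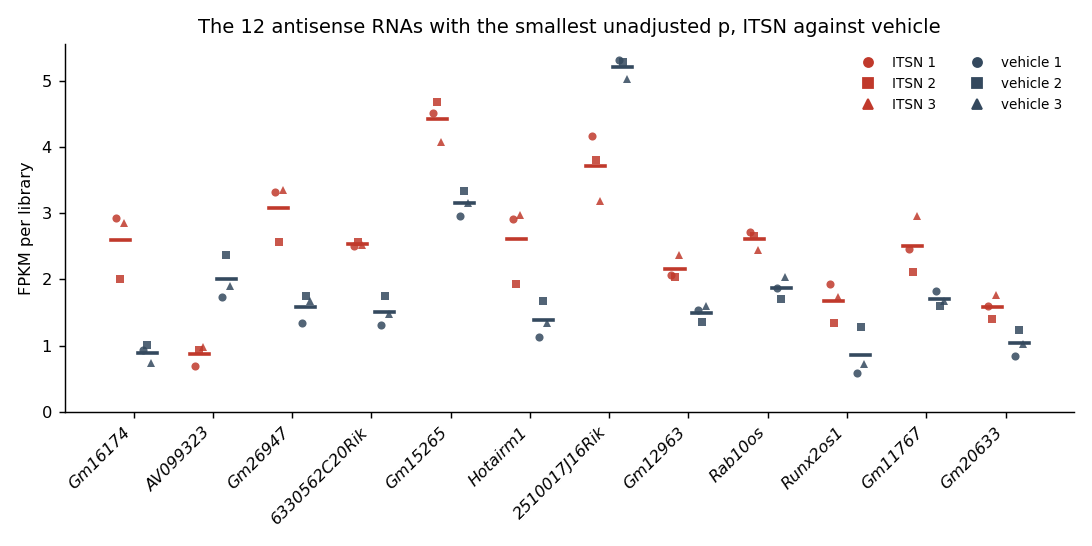
FPKM in each library of the 12 antisense RNAs with the smallest unadjusted p; symbols are libraries, ITSN left of vehicle, and bars are group means. Gm16174 had 2.00 to 2.93 FPKM in ITSN and 0.734 to 1.01 FPKM in vehicle, and AV099323 and 2510017J16Rik were the members that were lower in ITSN.

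A member and its partner can differ by the same amount or not. Among the 81 pairs with the first-listed partner and both genes tested, 51 (63.0%) had log2 differences of the same sign, against 64.5% of all 1043 opposite-strand overlapping pairs of tested genes. The Spearman correlation of the paired differences was 0.32 over these 81 pairs and 0.35 over the 1043. The values come from the same 6 libraries and share the GC trend, so they are a description.

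**Figure D4:**
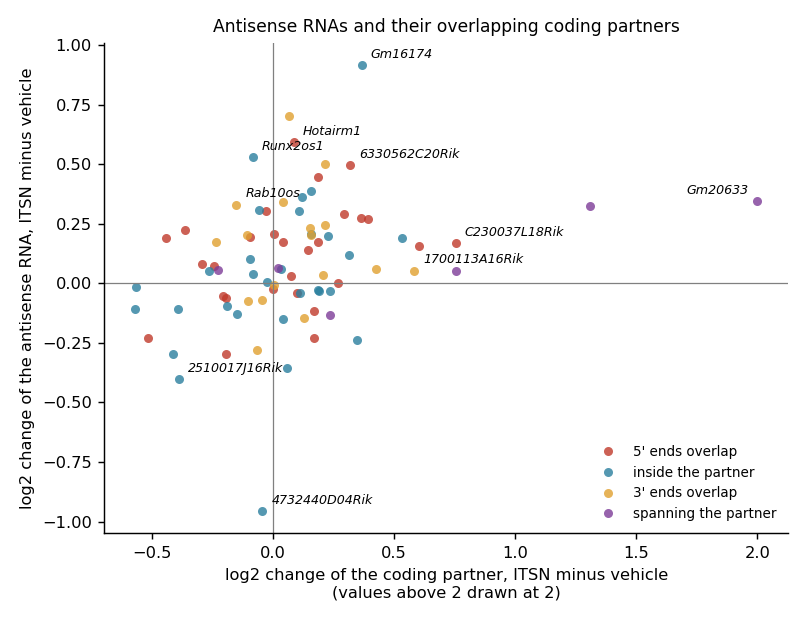
Log2 difference of ITSN minus vehicle of each antisense RNA (vertical) against that of its coding partner (horizontal), on the log2(FPKM + 1) scale, coloured by position; 1 point beyond the axis, Gm20633 with Hist2h2aa1 at 4.49, is drawn at its edge. The points spread over all 4 quadrants with 51 of 81 pairs on the same side of 0 for both genes.

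The ratio of each member to its partner was fitted with limma over all 1043 pairs, of which 93 set a member (81 members) against a coding gene. It was taken as a difference of log2(FPKM + 1), on which a low antisense RNA is understated more than an abundant partner. Genes with equal fold changes can therefore seem to differ. No member pair was called (0 of 93, and 0% of all pairs), and 19 (20.4%) had an unadjusted p under 0.05, against 16.5% of all pairs. Gm20628, which spans the histone gene Hist2h2bb, headed the list. It was at 1.64, 1.68 and 1.65 FPKM in ITSN, against 0.786, 1.14 and 1.50 FPKM in vehicle, while Hist2h2bb was at 333, 342 and 340.0 FPKM in ITSN, against 338, 438 and 481 FPKM in vehicle. On the log2(FPKM + 1) scale the antisense RNA minus its partner was -6.99, -7.00 and -7.01 in ITSN, against -7.57, -7.68 and -7.59 in vehicle. The groups were far apart relative to their spread, with a difference of 0.62 (SE 0.09, limma adjusted p = 0.104). The direction depended on the partner, because against Hist2h3b, which Gm20628 also spans, the difference was -0.99 (SE 0.33, limma adjusted p = 0.209). Hist2h3b itself had a log2 difference of 1.31.

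For Rab10os and Rab10, a small GTPase gene of vesicle transport, the antisense RNA was relatively higher in ITSN by 0.48 (SE 0.10, limma adjusted p = 0.118). Rab10os was at 2.72, 2.66 and 2.45 FPKM in ITSN, against 1.87, 1.70 and 2.03 FPKM in vehicle, and Rab10 at 57.5, 59.6 and 53.3 FPKM in ITSN, against 61.0, 64.5 and 63.8 FPKM in vehicle. Neither gene had groups that overlapped, and the 2 genes stood on opposite sides. The other 4 of the first 6 pairs had a partner that was higher in every ITSN library than in every vehicle library, beside an antisense RNA whose groups overlapped. 1700113A16Rik had a log2 difference of 0.05 and the transcription factor gene Mef2d 0.58, a difference between them of -0.53 (SE 0.10, limma adjusted p = 0.118). C230037L18Rik had 0.17 and the lysosomal arylsulfatase gene Arsa 0.75, a difference of -0.59 (SE 0.13, limma adjusted p = 0.118). A930015D03Rik had -0.13 and H2-T23, a nonclassical class I gene, 0.80, a difference of -0.93 (SE 0.21, limma adjusted p = 0.126). It shares no exonic base with H2-T23 and 1003 with H2-T22, against which the difference was -0.61 (SE 0.21, limma adjusted p = 0.209). Against H2-T24, which it also spans, the difference was -0.37 (SE 0.20, limma adjusted p = 0.405). Gm17435 had 0.06 and the Mediator subunit gene Med26 0.42, a difference of -0.36 (SE 0.10, limma adjusted p = 0.175). With the GC trend removed the last difference was -0.06 (limma adjusted p = 0.804) and Med26 was at 0.06. The other 5 pairs kept their direction there, from -0.78 for A930015D03Rik to 0.84 for Gm20628.

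Without vehicle 1 limma called 3 member pairs (3.23%), against 1.15% of all pairs (12). They were Gm20628 with Hist2h2bb (adjusted p = 0.014), C230037L18Rik with Arsa (adjusted p = 0.049) and Gm20633 with Hist2h2aa1 (adjusted p = 0.014). Over the 16 other settings the limma adjusted p of these pairs ran up to 0.410, 0.410 and 0.480, each without ITSN 1. Gm20633 was at 1.60, 1.40 and 1.77 FPKM in ITSN, against 0.848, 1.24 and 1.03 FPKM in vehicle. Hist2h2aa1 was at 165, 159 and 87.0 FPKM in ITSN, against 48.3, 0.0986 and 2.82 FPKM in vehicle. Hist2h2aa2, a near-identical copy, was at 141, 142 and 159.8 FPKM in ITSN, against 45.8, 108 and 131 FPKM in vehicle. How reads were divided between the copies was not tested, and the pair is uncertain.

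**Figure D5:**
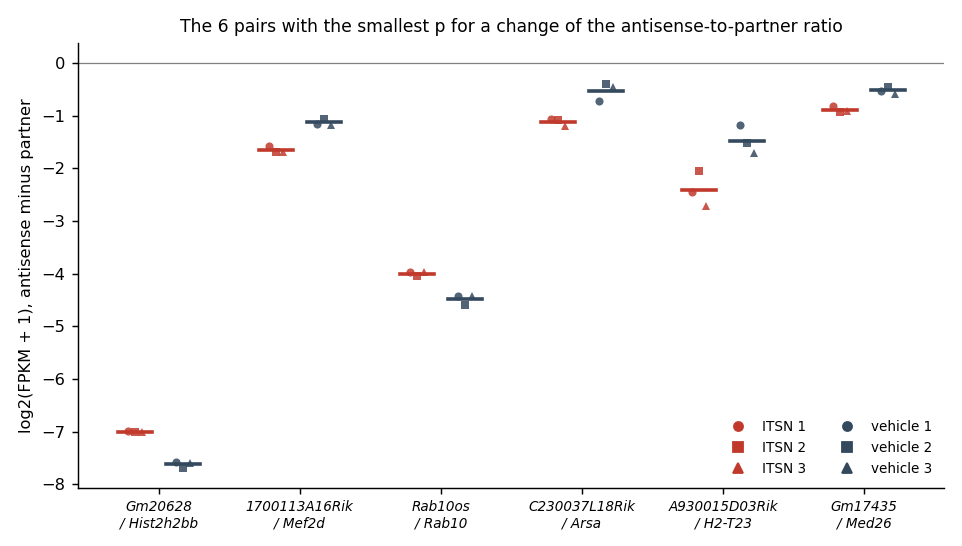
Log2(FPKM + 1) of the antisense RNA minus that of its partner in each library, for the 6 pairs with the smallest p; symbols are libraries, ITSN left of vehicle, and bars are group means. Gm20628 stood higher relative to Hist2h2bb in ITSN (but lower relative to Hist2h3b, which is not drawn), Rab10os higher relative to Rab10, and the other 4 lower relative to the partner drawn.

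Some members ranged widely within a group, and these were chosen after their values were seen. Gm44206, opposite the 3′ end of the DNA repair gene Mbd4, was at 0.155, 5.19 and 5.97 FPKM in ITSN, against 0.101, 0.0806 and 8.68 FPKM in vehicle, so each group held high and near-0 libraries. 4732440D04Rik, within the autophagy gene Rb1cc1, was at 0.00551, 1.48 and 0.00459 FPKM in ITSN, against 1.67, 1.72 and 1.52 FPKM in vehicle. ITSN 2 lay close to the vehicle libraries and the other ITSN libraries near 0; Rb1cc1 itself had a log2 difference of -0.04. Gm12932, which starts 187 bases from Meaf6, was at 1.54, 1.77 and 2.91 FPKM in ITSN, against 0.296, 1.75 and 1.08 FPKM in vehicle. Gm15564, the member that was not tested, was at 1.65, 0.799 and 2.50 FPKM in ITSN, against 0.309, 0 and 0.983 FPKM in vehicle. For the median member the lowest and highest library were 0.56 log2 units apart.

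Machinery that degrades or reads antisense RNA was described by 2 lists. The 24 symbols of the nuclear exosome and its adaptors named 21 genes, since 3 are newer names of Skiv2l2, Papd5 and Papd7, and all 21 were tested. Of these 0 were called by limma and 3 had an unadjusted p under 0.05, where 20.9% of all tested genes did. In this list 11 were above 0, where 64.0% of all tested genes were, and the median log2 difference was 0.00. Exosc5, a core exosome subunit, was at 2.20, 1.92 and 2.37 FPKM in ITSN, against 0.982, 1.25 and 1.26 FPKM in vehicle, with no overlap and a limma adjusted p of 0.076. Exosc9, another core subunit, and Mphosph6, an exosome cofactor, had log2 differences of -0.29 and -0.25. Of 27 genes that edit, process or sense double-stranded RNA 26 were tested, 0 were called and 6 had an unadjusted p under 0.05, where 20.9% of all tested genes did. Here 18 were above 0, where 64.0% of all tested genes were, and the median was 0.10 against 0.09 in all tested genes. Adar, the adenosine deaminase that edits double-stranded RNA, was at 11.1, 9.61 and 11.7 FPKM in ITSN, against 6.30, 7.30 and 8.36 FPKM in vehicle, with no overlap and a log2 difference of 0.50 (SE 0.13, limma adjusted p = 0.104). Of the other 5, Dhx58, Oas2, Oas3 and Tarbp2 were also higher in ITSN (log2 differences of 0.49, 0.41, 0.50 and 0.28), and Stau1, which binds double-stranded RNA, had -0.48 (limma adjusted p = 0.116).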

How the data were processed

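RNA sequencing values of 6 libraries, 1 per mouse, were used, grouped by treatment. Per the labels' protocols, RNA extraction used TRIzol and columns, and library preparation used mRNA enrichment or ribosomal RNA removal with dUTP strand marking. The submitters' processing notes name mm10. The aligner, quantifier, annotation release and use of strand are not given in these sources. The authors deposited gene values in FPKM, as named per the file headers. The higher group mean of every listed gene reached 0.50 FPKM. The last ITSN column matches its sample's description, not its title. FPKM keeps no depth, so depth is unknown and no intervals were given.

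The 12257 genes that reached 1 FPKM in 3 or more libraries were fitted with limma 3.58.1 under R 4.3.3 on log2(FPKM + 1), with a mean-variance trend, two-sided, Benjamini-Hochberg adjustment over all of them and a threshold of 0.05. The ratio fit used antisense minus partner values of all 1043 overlapping opposite-strand pairs. Alternatives were pseudocounts of 0.1 and 0.5, other filters, TMM scaling (computed on the FPKM columns), quantile normalization, removal of the GC trend (lowess span 0.3), the replicate number as a block and each library left out; the GC trend removed together with vehicle 1 left out was added after seeing the data. GC, exons and M21 partners came from GENCODE M21, where 108 members had the same coordinates.

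Members and lists were chosen with earlier results of these data known. Named were the 10 most abundant members, the 12 with the smallest unadjusted p, the 6 pairs with the smallest p for the ratio, those just inside and outside 1 FPKM, their partners, and listed symbols of known role, of which Tug1, Kcnq1ot1 and Airn met the rule.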

Additional observations from a re-analysis of the deposited data

How the results depend on the processing

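Of the 12 members with the smallest p, 9 kept their direction in every other setting that could fit them (15 or 16), the exceptions being Gm12963, Runx2os1 and Gm11767. With a filter of 5 FPKM few members remained, 19 genes were called, 1 member and 1 member pair had an unadjusted p under 0.05 and 8 members were above 0. TMM scaling called 113 genes (64 higher and 49 lower in ITSN, against 6 and 1 without it) and 1 member. Quantile normalization called 93 genes (62 higher, 31 lower) and gave a member median of -0.0085. Deviations from the group means correlated at -0.0038, -0.14 and 0.24 for replicate numbers 1, 2 and 3. With 3 libraries per group these values can neither show nor exclude a pairing of the samples. With a replicate block 2 genes were called. Leaving out 1 library at a time gave 1 to 673 genes called, 0 to 3 members called, 9 to 29 members with an unadjusted p under 0.05, 0 to 3 member pairs called, 0 to 12 of all pairs called and 10 to 25 member pairs with an unadjusted p under 0.05. The highest of these counts of calls, and the 29, came without vehicle 1, the 9 and 10 without ITSN 1. With the GC trend removed and vehicle 1 left out, 64 genes, 2 member pairs and 12 of all pairs were called. The counts of this paragraph at an unadjusted p under 0.05, and of members above 0, stand without the share of all tested genes or pairs. They are no result about antisense RNAs.

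Some named members changed sign; the cause was not tested. With the GC trend removed the log2 difference was 0.051 for Tug1, 0.0021 for Kcnq1ot1, 0.0036 for Gm26944, -0.0053 for Gm12963, -0.067 for Gm11767, -0.056 for 1700113A16Rik and -0.0068 for Gm17435. With vehicle 1 left out as well it was 0.060 for Tug1, 0.091 for Kcnq1ot1, 0.014 for Gm26944, -0.022 for Runx2os1, -0.022 for 1700113A16Rik and -0.12 for C230037L18Rik. TMM scaling gave -0.035 for Brip1os, -0.012 for 1700113A16Rik and -0.012 for Gm17435, and quantile normalization -0.0079, -0.077 and -0.080. Leaving out 1 library gave -0.15 to 0.054 for Gm4610, -0.015 to 0.14 for Brip1os, -0.35 to 0.025 for F630028O10Rik, -0.07 to 0.40 for Gm27240, -0.023 to 0.35 for Gt(ROSA)26Sor, -0.18 to 0.052 for Gm26944, -0.022 to 0.12 for 1700113A16Rik and -0.12 to 0.40 for C230037L18Rik. FPKM of members under 2 FPKM rests on few reads, and how few is unknown.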
